A study of Mus musculus with 8 samples.

Results

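The 10 genes described here are markers of radial glia, and were chosen by name: Nes, Vim, Fabp7, Slc1a3, Prom1, Sox9, Hopx, Tnc, Ptprz1 and Nfia. They were found on the array through the accession of each probe that is not a control, which gave 17 probes of 41174 and 10 genes of the 17178 gene symbols matched. All 17 probes and all 10 genes passed the filter on dim probes, as did 31288 probes and 14453 genes in all. The arrays measured RNA of the mouse medial ganglionic eminence (MGE), the part of the ventral telencephalon that expresses the homeodomain transcription factor (TF) NKX2-1, micro-dissected at embryonic day (E) 13.5. There were 4 WT and 4 Nkx2-1cKO samples, with 1 sample per 1-colour array, and the comparison asks how loss of Nkx2-1 alters transcript levels in the MGE. Both groups are of the strain C57BL/6. By the labels, the WT samples have the genotype Nkx2-1flox/+;Olig2tva-cre- and the Nkx2-1cKO samples Nkx2-1flox/+;Olig2tva-cre+, so both carry a floxed allele and the Cre, which is driven from the Olig2 locus, is present in the mutants alone. In the methods of the study the floxed mice are homozygous (Nkx2-1f/f), which differs from the labels. The Nkx2-1 signal of the mutants was 0.0124 of the WT level on these arrays. Whether the 4 samples of a group come from separate embryos is not stated, so p-values measure the spread between these samples.

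Radial glia are the neural stem cells of the embryonic brain. Their cell bodies lie in the ventricular zone (VZ), where an apical endfoot reaches the ventricle and a long basal fibre reaches the pial surface. They divide to renew themselves and to give rise to neurogenic progenitors of the subventricular zone (SVZ) and, later in development, many of them turn to making astrocytes and oligodendrocyte precursors. The genes followed here encode the intermediate filaments of the fibre (Nes, Vim), a fatty acid binding protein and a glutamate transporter typical of glia (Fabp7, Slc1a3), a glycoprotein of apical membrane protrusions (Prom1), nuclear factors of stem cell maintenance and gliogenesis (Sox9, Nfia), and genes that in the cortex mark outer radial glia, the stem cells outside the VZ (Hopx, Tnc, Ptprz1).

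Because the change studied is the loss of a TF, and because the study examined homeodomain, octamer and SOX motifs, the 250 bases before the annotated transcript start were searched in the members for 4 short motifs. RefSeq promoters on GRCm38.p6 gave 12 windows for 9 of the genes, and Sox9 had none. The NKX2-1 core CAAGTG, searched like the others on both strands, was in 0 of the 12 windows, against 11.6% of all 32851 windows of this length. The homeodomain core TAATTA was in 0 of the 12, against 4.84% of all windows. The octamer ATGCAAAT was in 2 of the 12 windows, which are overlapping windows of Tnc that share a single match, against 1.6% of all windows. The SOX core AACAAT was in 1 of the 12 windows, at Hopx, against 9.42% of all windows. These matches describe letters only, and no binding at these sites was measured here. Of the windows with a match, that of Hopx and 1 of the 2 of Tnc are printed below, beside that of Nes as an example with no match. They run 5′ to 3′ on the strand of the gene, with the motif in capitals. The Tnc window covers chr4:64046937-64047186 (minus strand), with the octamer beginning 195 bases before the start. The Hopx window covers chr5:77095268-77095517 (minus strand), with the SOX core, here read on the opposite strand as ATTGTT, beginning 179 bases before the start. The Nes window covers chr3:87970843-87971092 (plus strand).
Tnc: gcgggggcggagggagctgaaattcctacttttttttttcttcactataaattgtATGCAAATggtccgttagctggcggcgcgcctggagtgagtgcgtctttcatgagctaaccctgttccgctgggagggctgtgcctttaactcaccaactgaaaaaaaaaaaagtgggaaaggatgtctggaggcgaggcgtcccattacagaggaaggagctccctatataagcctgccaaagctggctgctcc
Hopx: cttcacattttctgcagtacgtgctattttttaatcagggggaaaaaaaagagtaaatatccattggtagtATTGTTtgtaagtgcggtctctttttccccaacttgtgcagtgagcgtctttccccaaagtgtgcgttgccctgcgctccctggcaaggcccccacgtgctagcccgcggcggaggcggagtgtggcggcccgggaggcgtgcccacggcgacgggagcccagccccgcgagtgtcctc
Nes: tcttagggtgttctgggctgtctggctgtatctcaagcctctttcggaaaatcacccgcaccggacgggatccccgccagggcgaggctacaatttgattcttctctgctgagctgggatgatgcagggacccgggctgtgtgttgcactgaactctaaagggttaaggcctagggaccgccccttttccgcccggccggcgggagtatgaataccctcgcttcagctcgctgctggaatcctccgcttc

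Per array, 31305 to 32674 probes were well above background in WT (median 31618) and 29278 to 32745 in the Nkx2-1cKO (median 29685). No spot was saturated, and the number of arrays limits the precision. The arrays lay on 2 slides, each with 2 arrays of each group. As a check of the labels, the log2 signal of Nkx2-1 averaged 1.87 ± 0.06 in WT against -4.46 ± 0.19 in the mutants (mean ± SD, n = 4 each), a fall to 0.0124 of the WT level (log2 fold change -6.34, SE 0.11, adjusted p = 4.68e-09, limma). In the list of MGE genes 4 of 5 fell, and in that of genes of the lateral and caudal ganglionic eminences (LGE and CGE) 4 of 8 rose (limma). WT replicate 1 stood apart at low signal. In the dimmest of 5 equal classes of tested probes, each array was set, probe by probe, against the median of the remaining 7. The median difference was 1.18 on the log2 scale for WT 1, and between -0.41 and 0.22 for the others.

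None of the 10 radial glia genes changed in the Nkx2-1cKO at an adjusted p under 0.05 (limma, Benjamini-Hochberg over all 31288 tested probes), and none of their 17 probes did. A gene is represented here by its probe with the highest mean signal. Among all tested genes 1.34% passed this threshold (0.491% as higher and 0.851% as lower), and among all tested probes 1.04% did (0.422% as higher and 0.614% as lower), so a count of 0 in 10 does not set these genes apart from the background. At an unadjusted p under 0.05 the count was 1 of the 10 genes, against 9.48% of all tested genes, and 3 of the 17 probes, against 8.61%. The log2 fold changes of the 10 genes lay between -0.33 and 0.06 with a median of -0.13, beside a median of 0.00 over all tested genes. Their standard errors (SE) were 0.08 to 0.21, around the median of 0.13 for all tested genes. A change of 1 on the log2 scale in either direction was outside the 95% interval for all 10 genes, and 9 of the intervals lay within 1.5-fold of WT. In whole tissue, fewer cells of a type and less RNA per cell cannot be told apart.

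**Figure D1:**
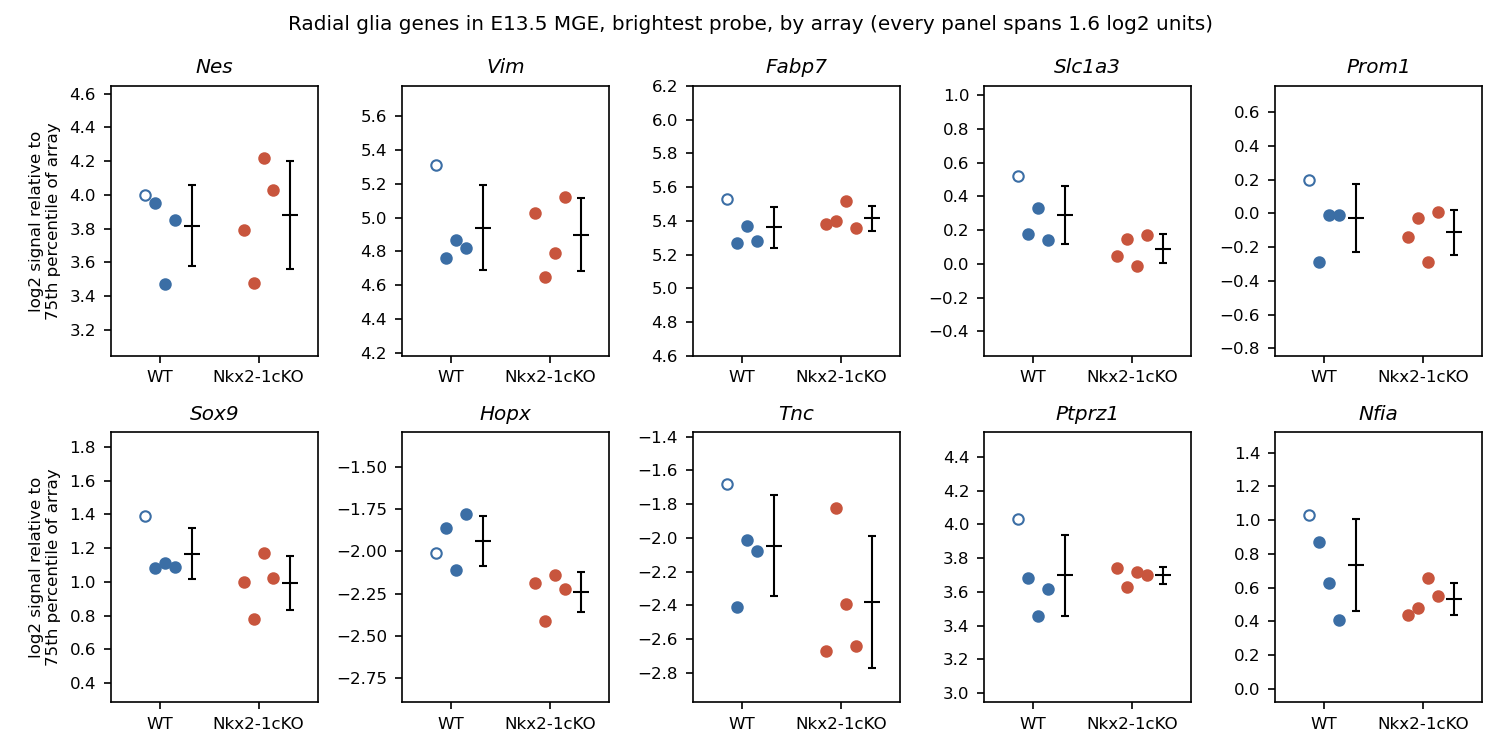
Signal of the 10 radial glia genes on each array. Each panel shows the log2 signal relative to the 75th percentile of the array (every panel spans 1.6 log2 units), with WT arrays in blue, Nkx2-1cKO arrays in red, WT replicate 1 as an open circle, and the group mean ± SD (n = 4) as black bars. The groups overlap in every panel but that of Hopx.

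Among the intermediate filaments, the log2 signal of Nes, which encodes nestin, was 4.0, 3.95, 3.47 and 3.85 on WT arrays 1 to 4, and 3.79, 3.48, 4.22 and 4.03 on Nkx2-1cKO arrays 1 to 4. Nes was lowest on WT 3 and highest on Nkx2-1cKO 3, and the groups overlapped over most of their range. The groups averaged 3.82 ± 0.24 in WT and 3.88 ± 0.32 in the mutants (mean ± SD, n = 4 each). This is a difference of 0.06 (95% interval -0.31 to 0.44, adjusted p = 0.911, limma). The Nes probe is printed at 10 spots of each array, so that its value is an average of repeated spots.

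Vim encodes vimentin, with which nestin forms filaments. On the log2 scale its signal was 5.31, 4.76, 4.87 and 4.82 in WT and 5.03, 4.65, 4.79 and 5.12 in the Nkx2-1cKO. WT 1 was the highest and Nkx2-1cKO 2 the lowest array, and the other arrays of both groups lay between them. The log2 fold change was -0.04 (95% interval -0.36 to 0.28, adjusted p = 0.932, limma), and it was 0.08 without WT 1. Within slides the difference of Vim was -0.20 on slide 1, which holds WT 1, and 0.12 on slide 2.

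Fabp7 encodes the brain fatty acid binding protein (BLBP) and was the most precisely measured of the 10. Its log2 signal was 5.53, 5.27, 5.37 and 5.28 in WT and 5.38, 5.40, 5.52 and 5.36 in the Nkx2-1cKO. All 8 arrays lay close together, and the highest of each group were nearly level. The log2 fold change was 0.05 (SE 0.08, 95% interval -0.12 to 0.23, adjusted p = 0.821, limma), which bounds the Nkx2-1cKO level between 0.92 and 1.17 of WT.

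Slc1a3 encodes the glutamate transporter GLAST. Its log2 signals were 0.52, 0.18, 0.33 and 0.14 in WT and 0.05, 0.15, -0.01 and 0.17 in the Nkx2-1cKO. WT 1 and WT 3 lay above all Nkx2-1cKO arrays, WT 2 was barely above the highest of them, and WT 4 lay among them. The difference was -0.20 (95% interval -0.43 to 0.03, adjusted p = 0.625, limma; two-sided exact permutation p = 0.114), and -0.13 without WT 1.

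Prom1 encodes prominin-1 (CD133), and is measured by 2 probes. On the brighter the log2 signal was 0.20, -0.29, -0.01 and -0.01 in WT and -0.14, -0.03, -0.29 and 0.01 in the Nkx2-1cKO. The lowest array of each group had the same value, and only WT 1 lay above the others. The log2 fold change was -0.08 (95% interval -0.35 to 0.18, adjusted p = 0.817, limma) on this probe and -0.14 (95% interval -0.40 to 0.12, adjusted p = 0.698, limma) on the other.

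The TFs Sox9 and Nfia act in series in gliogenesis, with SOX9 inducing NFIA in the spinal cord. On the brightest of 3 Sox9 probes the log2 signal was 1.39, 1.08, 1.11 and 1.09 in WT and 1.00, 0.78, 1.17 and 1.02 in the Nkx2-1cKO. The last 3 WT arrays were almost equal, WT 1 lay well above them, and Nkx2-1cKO 3 fell among the WT arrays. The log2 fold change was -0.17 (95% interval -0.42 to 0.07, adjusted p = 0.657, limma), and -0.10 without WT 1. A further Sox9 probe, printed at 10 spots, gave -0.26 (95% interval -0.63 to 0.11, adjusted p = 0.657, limma).

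The dimmest Sox9 probe had the largest estimate among the 17 probes. Its log2 signal was -2.90, -3.85, -4.18 and -3.53 in WT and -4.16, -4.62, -4.15 and -4.04 in the Nkx2-1cKO. WT 1 was again the highest array by a wide margin and WT 3 lay among the Nkx2-1cKO arrays. The log2 fold change of -0.63 (95% interval -1.22 to -0.03) did not pass the threshold (adjusted p = 0.557, limma; two-sided exact permutation p = 0.114). It was -0.39 without WT 1 and 0.12 after another background correction (normexp), so the direction on this dim probe depends on the background correction.

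Nfia was measured by 3 probes that differed in the size of the change. On the brightest, the log2 signal was 1.03, 0.87, 0.63 and 0.41 in WT and 0.44, 0.48, 0.66 and 0.55 in the Nkx2-1cKO, with a log2 fold change of -0.20 (95% interval -0.50 to 0.09, adjusted p = 0.658, limma). The WT arrays spread widely here and the lowest of all 8 was a WT array. On a further probe it was 0.63, 0.18, 0.17 and 0.33 in WT and -0.33, 0.01, -0.07 and -0.11 in the Nkx2-1cKO. On this probe all mutant arrays were lower than all WT arrays (two-sided exact permutation p = 0.0286, the smallest that 4 arrays against 4 allow).

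The log2 fold change on that Nfia probe was -0.46 (SE 0.12, 95% interval -0.74 to -0.18, or 0.728 of the WT level), with an adjusted p of 0.212 (limma), the smallest of the 17 probes. Within slide 1 the difference was -0.45 and within slide 2 -0.46, and the log2 fold change was -0.36 without WT 1. The remaining Nfia probe gave -0.09 (95% interval -0.53 to 0.36, adjusted p = 0.892, limma), with overlapping groups. Groups without overlap and lower in the Nkx2-1cKO made up 4.11% of all tested probes and 4.02% of all tested genes (higher, 2.29% and 2.82%). Among the members those lower were 2 of 17 probes and, by the brightest probe, 1 of 10 genes.

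Hopx was that gene. It encodes a small homeodomain protein that does not bind DNA, and marks outer radial glia in the cortex. The log2 signal of Hopx was -2.01, -1.86, -2.11 and -1.78 in WT and -2.19, -2.41, -2.14 and -2.22 in the Nkx2-1cKO. The lowest WT array, WT 3, and the highest mutant array, Nkx2-1cKO 3, were almost level, and Nkx2-1cKO 2 lay furthest below. The groups averaged -1.94 ± 0.15 in WT and -2.24 ± 0.12 in the mutants (mean ± SD, n = 4 each), or 0.812 of the WT level.

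The Hopx difference of -0.30 (log2 scale; SE 0.11, 95% interval -0.55 to -0.05) missed the threshold over all 31288 tested probes (adjusted p = 0.471, limma; two-sided exact permutation p = 0.0286). It was -0.26 on slide 1 and -0.35 on slide 2, and WT 1 did not carry it, as it was -0.33 without that array. After normexp background correction it was -0.04. The 3 genes whose log2 signal followed Hopx most closely over the 8 arrays, of 14452 genes compared, were Tmem131l (Pearson r = 0.986), Nme6 (r = 0.981) and Khdrbs2 (r = 0.97). Their log2 fold changes were -0.28, -0.34 and -0.31, and none passed the threshold (adjusted p = 0.309, 0.405 and 0.276, limma).

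Tnc encodes tenascin C, an extracellular matrix glycoprotein of the stem cell niche. On its brighter probe the log2 signal was -1.68, -2.41, -2.01 and -2.08 in WT and -2.67, -1.82, -2.39 and -2.64 in the Nkx2-1cKO. WT 1 was the highest array, but Nkx2-1cKO 2 came next, above the other WT arrays. The difference of -0.33 had the widest interval among the 10 genes (-0.81 to 0.14; adjusted p = 0.658, limma), so that a level as low as 0.571 of WT lies within it. The other Tnc probe, whose log2 signal lay between -6.29 and -5.35, gave -0.10 (95% interval -0.74 to 0.55, adjusted p = 0.92, limma).

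Ptprz1 encodes a receptor protein tyrosine phosphatase that binds tenascins, pleiotrophin and midkine. The log2 signal of its brighter probe was 4.03, 3.68, 3.46 and 3.62 in WT and 3.74, 3.63, 3.72 and 3.70 in the Nkx2-1cKO. The Nkx2-1cKO arrays lay close together and inside the range of the WT arrays. The groups averaged 3.70 ± 0.24 in WT and 3.69 ± 0.05 in the mutants (mean ± SD, n = 4 each), or 0.997 of the WT level (95% interval 0.836 to 1.19, adjusted p = 0.992, limma). The dimmer probe gave a log2 fold change of -0.08 (95% interval -0.43 to 0.26, adjusted p = 0.862, limma).

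**Figure D2:**
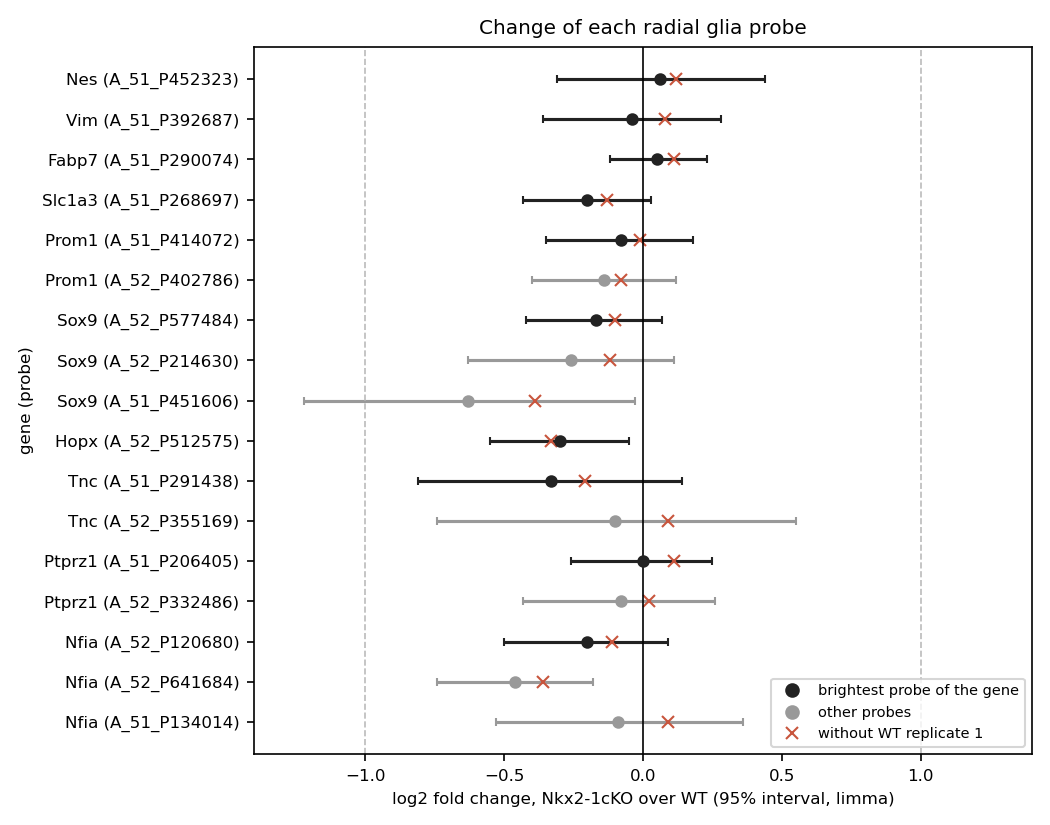
Log2 fold change, Nkx2-1cKO over WT, of the 17 probes of the radial glia genes, with 95% intervals (limma). Black points are the brightest probe of each gene and grey points the others, crosses give the estimate without WT replicate 1, and dashed lines mark a change of 1 in either direction. For all but the dimmest Sox9 probe the interval lies inside the dashed lines.

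The small differences moved with WT replicate 1. The estimate was negative for 8 of the 10 genes, beside 50.4% of all tested genes, and without WT 1 it was negative for 6 of the 10, beside 45.2% of all. The median of the 10 without that array was -0.05, beside 0.02 for all tested genes. WT 1 was the highest of the WT arrays for 9 of the 10 genes and 16 of the 17 probes, beside 48.2% of all tested probes. The mean deviation of the 10 genes from their own means was 0.29 on WT 1 and between -0.11 and 0.00 on the other 7 arrays. Pairs of members were also correlated after the mean of each group was subtracted from each gene. Over the 45 pairs, the median correlation of these deviations across the 8 arrays was 0.436, and without WT 1 it was -0.00688. These correlations share the arrays and their scaling, and are given as a description. Within slide 1, which holds WT 1, the difference was -0.35 for Sox9, -0.07 for Fabp7 and -0.08 for Ptprz1, and within slide 2 it was 0.00, 0.17 and 0.07. What set WT 1 apart was not tested.

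**Figure D3:**
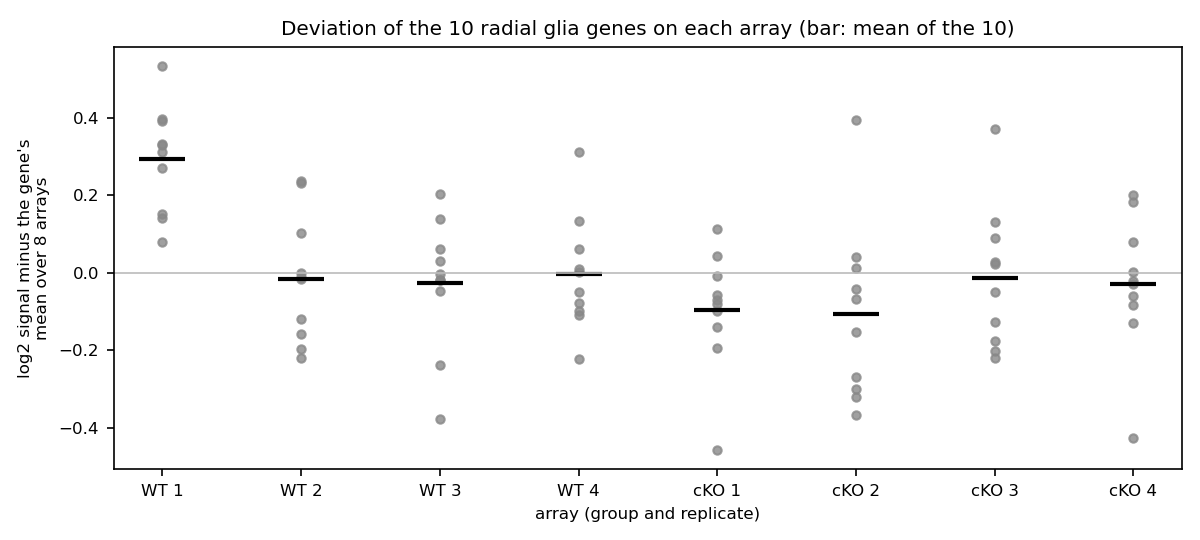
Deviation of the 10 radial glia genes from their mean over the 8 arrays, by array. Each grey point is a gene on the log2 scale and each black bar the mean of the 10, which is 0.29 on WT replicate 1 and between -0.11 and 0.00 on the other arrays.

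The members were then set beside related genes on the same arrays. Of 23 paralogues of the members, 19 were tested, and 3 rose, 0 fell and 16 did not pass the threshold (limma), with a median log2 fold change of 0.02. At an unadjusted p under 0.05 there were 5 of the 19, against 9.48% of all tested genes. The 3 were the neurofilament genes Nefl and Nefm, which encode intermediate filaments of neurons, and Sox8, which with Sox9 and Sox10 forms the SOXE group. The log2 signal of Nefl was 2.29, 2.78, 2.32 and 2.52 in WT and 3.40, 3.06, 3.51 and 3.35 in the Nkx2-1cKO, a rise of 0.85 (SE 0.13, adjusted p = 0.0145, limma) or 1.8-fold. All mutant arrays lay above all WT arrays.

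Nefm was 1.25, 1.49, 1.18 and 1.5 in WT and 2.39, 2.05, 2.16 and 1.84 in the Nkx2-1cKO, a rise of 0.75 (log2 scale; SE 0.13, adjusted p = 0.0237, limma) again without overlap. For Sox8, the log2 signal was -1.76, -0.91, -1.35 and -1.0 in WT and -0.12, -0.27, -0.05 and -0.19 in the Nkx2-1cKO. WT 1 was the lowest array here, and the mutant arrays lay close together above all WT arrays. Sox8 rose by 1.10 (SE 0.17, adjusted p = 0.0153, limma) or 2.14-fold, and its other probe by 0.96 (SE 0.15, adjusted p = 0.0152, limma). When arrays were centred on their median, none of the 3 passed (adjusted p = 0.0746 for Nefl, 0.0902 for Nefm and 0.0576 for Sox8, limma). Single arrays decided the calls as well. Nefl did not pass without WT 3, Nkx2-1cKO 1 or Nkx2-1cKO 4 (adjusted p = 0.0536 to 0.0634, limma), and Sox8 did not pass without WT 3 or Nkx2-1cKO 1, 3 or 4 (adjusted p = 0.0517 to 0.0655, limma). Nefm was lost without any of WT 1, WT 3 and Nkx2-1cKO 1, 2 and 3 (adjusted p = 0.0579 to 0.0848, limma), and also in a fit with no variance trend (0.75, adjusted p = 0.066, limma). Without those arrays the estimates lay between 0.80 and 0.84 for Nefl, 0.66 and 0.77 for Nefm, and 1.06 and 1.11 for Sox8.

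The changes of these relatives and of the members were compared within each array, for 10 pairs chosen after their values were seen. The relatives other than Nfib had already passed the threshold on these same arrays. The p-values of the pairs, here and below, therefore describe the gap and add no evidence for it. Nefl changed by 0.79 more than Nes and by 0.89 more than Vim on the log2 scale, and Nefm by 0.69 more than Nes, each without overlap of the groups (two-sided exact permutation p = 0.0286, adjusted over the 10 pairs 0.0357). Nefm changed by 0.80 more than Vim, with overlap (exact permutation p = 0.0571, adjusted 0.0635). Sox8 changed by 1.27 more than Sox9, and by 1.03 more without WT 1, which was low for Sox8 and high for Sox9 (exact permutation p = 0.0286, adjusted 0.0357). Markers of postmitotic neurons were 0 of 10 past the threshold (limma), with a median log2 fold change of -0.04 and 5 negative estimates. At an unadjusted p under 0.05 there were 3, against 9.48% of all tested genes, and all 3 were lower in the Nkx2-1cKO. They were Dcx (-0.25, adjusted p = 0.364, limma), Elavl4 (-0.30, adjusted p = 0.315, limma) and Syt1 (-0.30, adjusted p = 0.164, limma). The summed signal of the 10, in multiples of the 75th percentile of the array, was 167 to 178 in WT and 164 to 179 in the Nkx2-1cKO. Among the LGE and CGE genes the summed signal was 40.1 to 53.2 in WT and 73.7 to 81.5 in the Nkx2-1cKO. These sums are of linear signal, and Meis2, the brightest gene of that list, weighs most in them. Its log2 signal averaged 4.76 in WT and 5.74 in the Nkx2-1cKO. The median log2 fold change of the list was 0.70, with 1 of 8 estimates negative. The part of neurons or of LGE and CGE cells in the neurofilament and Sox8 results was not tested.

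Nfib is a paralogue of Nfia that acts with it in gliogenesis. Its log2 signal was 3.3, 3.2, 3.1 and 3.23 in WT and 2.59, 2.94, 2.85 and 2.77 in the Nkx2-1cKO. The groups did not overlap, and the difference of -0.42 (SE 0.09) did not pass the threshold (adjusted p = 0.0757, limma). Nfib, named here after its values were seen, and Nfia differed in their change by -0.22, with overlap (exact permutation p = 0.171, adjusted 0.171). Among the other paralogues, the largest differences that did not pass were those of Prom2 (-1.01, adjusted p = 0.673, limma) and Fabp4 (-0.79, adjusted p = 0.645, limma). Both turned positive after normexp background correction. The paralogues Ina, Fabp5, Sox10 and Tnn had no tested probe.

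**Figure D4:**
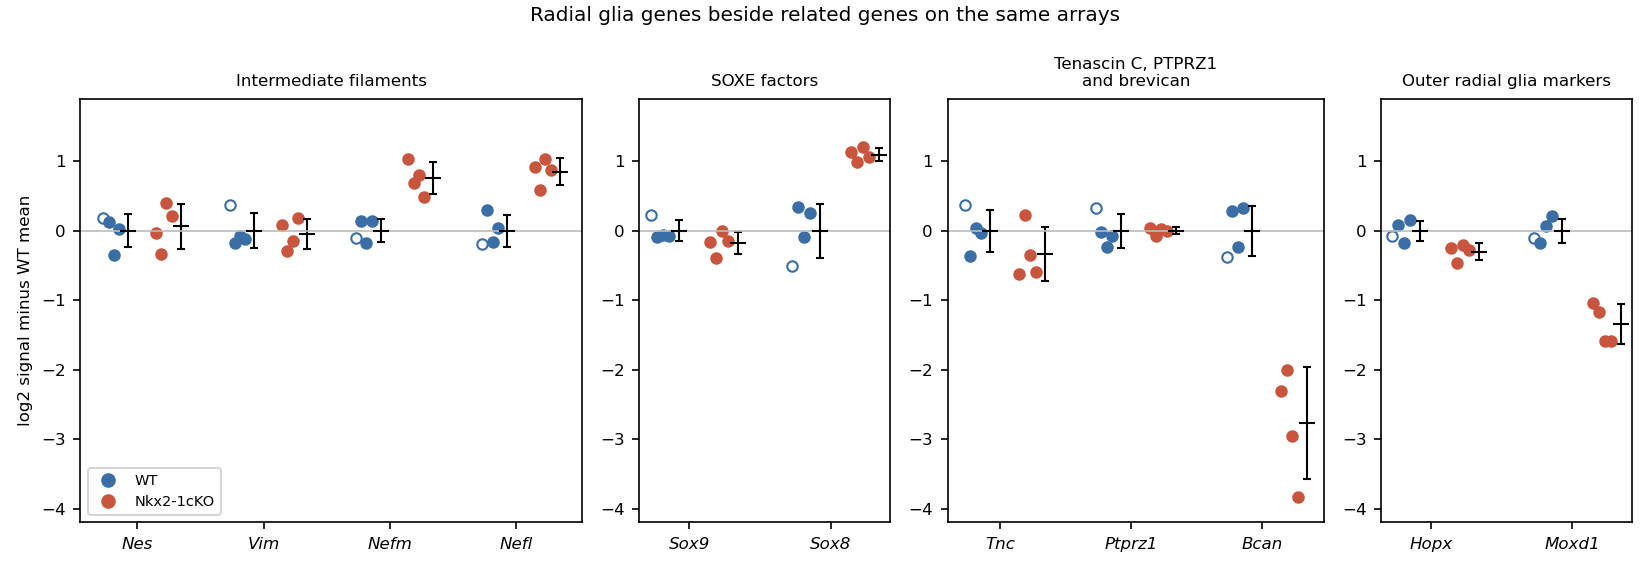
Radial glia genes beside related genes, as log2 signal minus the WT mean of the gene. WT arrays are blue (WT replicate 1 open) and Nkx2-1cKO arrays red, with black bars for the group mean ± SD (n = 4). Nefl, Nefm and Sox8 lie above 0, and Bcan and Moxd1 below 0, on every Nkx2-1cKO array, whereas Nes, Vim, Sox9, Tnc and Ptprz1 overlap between the groups. Hopx also lies below 0 on every Nkx2-1cKO array, by a smaller margin than Bcan and Moxd1.

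Of 20 other genes of radial glia and the VZ, 20 were tested and 1 rose, 0 fell and 19 did not pass (limma), with a median log2 fold change of 0.09. In this list 8 of 20 had an unadjusted p under 0.05, against 9.48% of all tested genes, and they went in both directions. Higher were Id4, Ddah1, Nr2e1 (0.39, adjusted p = 0.179, limma), Sfrp1 (0.32, adjusted p = 0.452, limma) and Ttyh1 (0.19, adjusted p = 0.579, limma). Lower were Ednrb (-0.36, adjusted p = 0.266, limma), Sox2 and Hes1. The gene that passed was Id4, which encodes a helix-loop-helix protein that inhibits proneural bHLH TFs. The log2 signal of Id4 was 3.55, 3.33, 3.22 and 3.6 in WT and 4.22, 3.92, 4.01 and 3.94 in the Nkx2-1cKO, with no overlap. Id4 rose by 0.60 (SE 0.11, adjusted p = 0.0301, limma) or 1.51-fold, and by 0.57 on its other probe (SE 0.09, adjusted p = 0.0118, limma). It changed by 0.77 more than Sox9 within arrays (exact permutation p = 0.0286, adjusted 0.0357). The brighter Id4 probe was close to the threshold, and lost the call without WT 2, WT 3 or any single Nkx2-1cKO array (0.53 to 0.63, adjusted p = 0.051 to 0.107, limma). It was also lost with median centring (0.73, adjusted p = 0.0663, limma), normexp (0.48, adjusted p = 0.114, limma) and no variance trend (adjusted p = 0.0879, limma).

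Ddah1 (0.49, adjusted p = 0.369, limma, and 0.64 with adjusted p = 0.0383 without Nkx2-1cKO 2) and Gli3, a TF of Hedgehog signalling (0.42, adjusted p = 0.593, limma), had the largest differences in this list that did not pass. The VZ TFs Pax6 and Sox2 and the Notch targets Hes1 and Hes5 did not pass either. Pax6 gave 0.15 (adjusted p = 0.66, limma) and Sox2 -0.31 (95% interval -0.57 to -0.06, adjusted p = 0.459, limma). Hes1 gave -0.28 (adjusted p = 0.574, limma) and Hes5 -0.08 (adjusted p = 0.825, limma). These 4 are named as familiar markers and not by the size of their change.

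The genes that hold radial glia in the ventricular surface were also measured. The list of apical junction and polarity genes has 15 names, of which Pals1 and Mpp5 are the same gene, and 12 genes were tested. Of these, 0 passed the threshold (limma), 1 had an unadjusted p under 0.05, and the median log2 fold change was -0.02. The extremes were the laminin receptor subunit Itga6 (0.34, adjusted p = 0.641, limma) and the polarity gene Mpp5 (-0.29, adjusted p = 0.489, limma). Cdh2, which encodes the N-cadherin of these junctions, gave 0.09 (95% interval -0.13 to 0.32, adjusted p = 0.757, limma). Numbl and Crb2 had no tested probe.

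Of 18 genes of outer radial glia and of partners of tenascin C and PTPRZ1, 18 were tested and 0 rose, 2 fell and 16 did not pass (limma), with a median of -0.22. Here 8 of 18 had an unadjusted p under 0.05, against 9.48% of all tested genes. Moxd1, a monooxygenase-like gene that marks outer radial glia in cortex, was -1.98, -2.05, -1.81 and -1.67 in WT and -2.91, -3.05, -3.46 and -3.46 in the Nkx2-1cKO on the log2 scale. The groups lay wholly apart. Moxd1 fell by 1.34 (log2 scale; SE 0.16, adjusted p = 0.00338, limma), to 0.395 of the WT level. It changed by -1.04 relative to Hopx within arrays (exact permutation p = 0.0286, adjusted 0.0357). After normexp background correction its log2 fold change was -0.79, which did not pass (adjusted p = 0.849, limma).

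Bcan, which encodes the proteoglycan brevican of the extracellular matrix, was -0.53, 0.14, -0.39 and 0.18 in WT and -2.45, -2.15, -3.1 and -3.98 in the Nkx2-1cKO. All mutant arrays lay far below the WT arrays, and they also spread more. Bcan fell by 2.77 (log2 scale; SE 0.36, adjusted p = 0.0054, limma), to 0.147 of the WT level, and its log2 fold change was -2.90 without WT 1. Relative to Tnc the change was -2.44 and relative to Ptprz1 -2.77 (exact permutation p = 0.0286, adjusted 0.0357, for each). The related proteoglycans Ncan and Vcan gave 0.06 (adjusted p = 0.856, limma) and 0.33 (adjusted p = 0.534, limma). The PTPRZ1 ligands Ptn and Mdk, pleiotrophin and midkine, gave 0.33 (adjusted p = 0.6, limma) and 0.28 (adjusted p = 0.625, limma).

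Brevican is also made by oligodendrocyte precursors. Of 6 markers of these cells 5 were tested, and 3 fell, with log2 fold changes of -3.61 for Gpr17 (adjusted p = 9.73e-06, limma), -1.76 for Pdgfra (adjusted p = 5.04e-05, limma) and -1.63 for Olig1 (adjusted p = 0.000367, limma). After normexp background correction Pdgfra gave -1.01 and did not pass (adjusted p = 0.533, limma). The other tested markers did not pass: Olig2, from whose locus the Cre is driven, gave 0.15 and Cspg4 -0.27 (adjusted p = 0.658 for each, limma). The 5 tested markers together summed to 3.67 to 4.29 in WT and 2.57 to 3.03 in the Nkx2-1cKO. Olig2 was the brightest of the 5 (mean log2 signal 0.87 in WT and 1.02 in the Nkx2-1cKO) and weighs most in these sums of linear signal. Sox10 had no tested probe. The part of these cells in the Bcan result was not tested.

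Bmp7 and Egfr had the largest differences in this list that did not pass. The log2 signal of Bmp7 was -3.59, -3.96, -4.28 and -2.30 in WT and -5.25, -5.14, -5.68 and -4.99 in the Nkx2-1cKO, a difference of -1.73 (adjusted p = 0.0921, limma), with no overlap. WT 4, the highest array for Bmp7, was also the highest for the mesenchymal collagen gene Col3a1, with a log2 signal of 1.26 against -1.87 to -1.18 on the other 7 arrays. The 7 markers of pericytes and mesenchyme summed to between 2.09 and 8.52 in WT and between 2.26 and 2.81 in the Nkx2-1cKO. The part of these cells in the Bmp7 result was not tested. Without WT 4 the Bmp7 difference was -1.32 (adjusted p = 0.0734, limma). Averaged over the probes of Bmp7 it was -1.93 and passed (adjusted p = 0.0486, limma), and after normexp background correction it was -0.37. Egfr gave -0.78 (adjusted p = 0.325, limma), and 0.07 after normexp background correction.

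Of 11 genes downstream of SOX9 and NFIA or typical of astrocytes, 10 were tested and 0 passed (limma), 3 had an unadjusted p under 0.05, and the median log2 fold change was -0.15. The largest differences were those of the water channel gene Aqp4 (-1.0, adjusted p = 0.622, limma) and of Apcdd1, an NFIA target (-0.58, adjusted p = 0.558, limma). WT 1 was far above the other arrays for Aqp4, at -3.29 against -6.35 to -4.86, and the Aqp4 difference was -0.50 without it. Gjb6 had no tested probe. The astrocyte glutamate transporter Slc1a2, the paralogue of Slc1a3, gave 0.02 (95% interval -0.29 to 0.33, adjusted p = 0.971, limma).

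**Figure D5:**
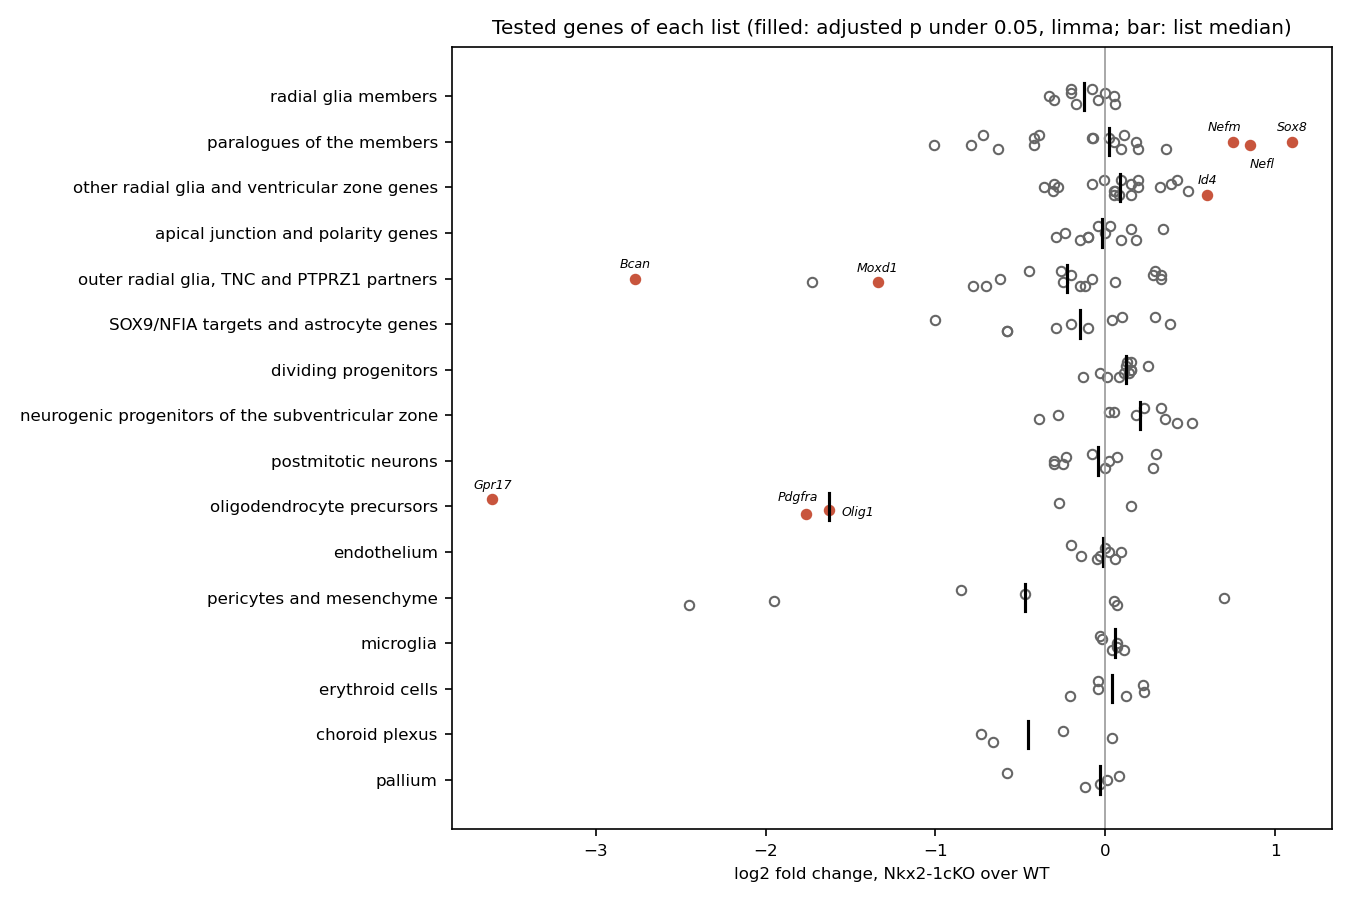
Log2 fold change, Nkx2-1cKO over WT, of the tested genes of each list. Each circle is a gene, filled and named where the adjusted p is under 0.05 (limma), and the black bar is the median of the list. The 10 radial glia genes lie between -0.33 and 0.06 with none filled, and the oligodendrocyte precursors have 3 filled of 5.

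Other cell groups of the dissected tissue were read from marker lists. None of 12 genes of dividing progenitors passed the threshold (limma; 1 with an unadjusted p under 0.05), with a median log2 fold change of 0.13 and a summed signal of 96.4 to 119 in WT and 99.1 to 124 in the Nkx2-1cKO. For neurogenic progenitors of the SVZ it was 0 of 10 (limma; 7 with an unadjusted p under 0.05, against 9.48% of all tested genes), with a median of 0.20 and a summed signal of 82.7 to 85.6 and 77.9 to 93.1. The 10 radial glia genes summed to 99 to 126 in WT and 96.5 to 111 in the Nkx2-1cKO, so that the ranges overlapped in all 3 groups. Sums of linear signal weigh bright genes most. Among the 10 these were Fabp7, Vim, Nes and Ptprz1 (log2 fold changes 0.05, -0.04, 0.06 and 0.00), and the dimmer members add little to the sum.

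The markers of endothelium (0 of 8, median -0.01), microglia (0 of 6, median 0.05), erythroid cells (0 of 6, median 0.04), pallium (0 of 5, median -0.03), choroid plexus (0 of 4 tested of 5, median -0.45) and of pericytes and mesenchyme (0 of 7, median -0.47) had none past the threshold (limma). At an unadjusted p under 0.05 there was 1 among these lists, in that of pericytes and mesenchyme. Erythroid markers summed to 248 to 351 in WT and 248 to 353 in the Nkx2-1cKO. Those of endothelium summed to 8.42 to 11.4 and 8.86 to 10.9. In both lists the ranges of the groups overlapped.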

How the data were processed

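RNA of micro-dissected MGE was linearly amplified by the authors, labelled with Cy3 and hybridised to 8 one-colour Agilent arrays. The deposited intensities are the output of Feature Extraction (10.7.3.1 per the file headers, 10.1 per the submitters' processing notes; probe grid on mm9), already corrected for background within the array and not scaled between arrays. Starting from them, spots of controls and flagged outliers were dropped, each array was divided by its 75th percentile, log2 was taken and the spots of a probe were averaged. Accessions tied 24844 of the 41174 probes to 17178 symbols of a RefSeq table on GRCm38.p6. A probe was tested where at least 4 of the 8 arrays showed it well above background (31288, with 50 missing values). Groups were compared with lmFit and eBayes with a variance trend (limma 3.58.1, R 4.3.3) and Benjamini-Hochberg adjustment over all tested probes, threshold 0.05. Exact permutation tests enumerate the 70 splits of the arrays. A value in multiples of the 75th percentile is the linear signal.

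The members, the lists and the tests were chosen with earlier results of these data known. Named are all members and, from each of the 5 related lists, genes past the threshold without overlap and the 2 largest differences not past it. Nfib, Pax6, Sox2, Hes1, Hes5, Cdh2, Ncan, Vcan, Ptn, Mdk, Slc1a2 and Col3a1 were named in addition, after their values were seen. So were Dcx, Elavl4, Syt1, Meis2, Nr2e1, Sfrp1, Ttyh1 and Ednrb. Alternatives were quantile normalization, median centring, normexp (offset 50, on the median signal, as the mean signal was not used here), 2 other filters on dim probes, a block for slide or for replicate number, a fit without variance trend, array weights, averaging the probes of a gene, and each array left out in turn. Scan time divides the arrays as slide does. In data simulated for the comparison of Nkx2-1cKO with WT (31288 probes, 200 of them changed), a change of 1 on the log2 scale was recovered for 62.5% (131 calls, 6 false) and a change of 0.5 for 0%. The pairs of genes, and the counts of related genes under the alternatives, were added after seeing the data.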

Additional observations from a re-analysis of the deposited data

Results flagged for a closer look

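On the brightest Sox9 probe, WT replicate 1 had a log2 signal of 1.39, while the other 3 WT arrays lay between 1.08 and 1.11, a gap large for the range of the group. Among 34 groups of 4 arrays examined (17 probes in WT and in the Nkx2-1cKO), it was the only one with such an array, and chance gives about 1.7. Without WT replicate 1 the log2 fold change of this probe was -0.10 in place of -0.17, and neither passed the threshold (limma).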

How the results depend on the processing

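The count of radial glia genes past the threshold was 0 under each of the 18 alternatives, with the smallest adjusted p at 0.169 (Hopx, limma). Some estimates changed sign, none of them past the threshold in either fit, and normexp turned the direction of larger differences too (Prom2 from -1.01, Aqp4 from -1.0, Fabp4 from -0.79, Egfr from -0.78, Sox9 A_51_P451606 from -0.63 and Apcdd1 from -0.58). Under quantile normalization these were Nes (0.00), Fabp7 (-0.08), Tnc A_52_P355169 (0.35) and Ptprz1 A_52_P332486 (0.03). With median centring, which moved the median of all genes by 0.13, they were Vim (0.09), Prom1 (0.05), Ptprz1 (0.12, and 0.05 for A_52_P332486), Tnc A_52_P355169 (0.03) and Nfia A_51_P134014 (0.04). With normexp they were Nes (-0.04), Fabp7 (-0.07), Tnc (0.04, and 0.72 for A_52_P355169), Sox9 A_51_P451606 (0.12), Ptprz1 A_52_P332486 (0.36), Prom2 (0.44), Fabp4 (0.56), Egfr (0.07), Aqp4 (0.35) and Apcdd1 (0.25). With array weights they were Vim (0.09), Prom1 (0.02), Ptprz1 (0.06, and 0.03 for A_52_P332486), Tnc A_52_P355169 (0.07) and Nfia A_51_P134014 (0.10). Without WT replicate 1 they were Vim (0.08), Ptprz1 (0.11, and 0.02 for A_52_P332486), Tnc A_52_P355169 (0.09) and Nfia A_51_P134014 (0.09). Without WT replicate 3 Nes was -0.05, as without Nkx2-1cKO replicate 3, without Nkx2-1cKO replicate 2 Vim was 0.04 and Ptprz1 0.02, and without Nkx2-1cKO replicate 1 Tnc A_52_P355169 and Nfia A_51_P134014 were 0.00. With each array left out in turn, estimates ran from -0.05 to 0.20 for Nes, -0.12 to 0.08 for Vim, -0.08 to 0.11 for Ptprz1, -0.18 to 0.02 for Ptprz1 A_52_P332486, and -0.21 to 0.09 for both Tnc A_52_P355169 and Nfia A_51_P134014. Over all probes, 132 were higher and 192 lower. The higher count was 63 with normexp, 209 with slide as a block and 64 to 120 with an array left out. The lower count was 115 with median centring, 92 with normexp, 289 with array weights and 131 to 174 with an array left out. In the 5 related lists, 4 genes were higher (0 with median centring, 2 with no variance trend, 0 to 4 with an array left out, and 0 without WT replicate 3 or without Nkx2-1cKO replicate 1) and 2 lower (1 with normexp, 4 with slide as a block or array weights, 5 with the mean of probes, 2 with any array left out). Same-numbered arrays did not deviate together (correlations -0.481 to -0.194), and the numbers are taken to pair nothing. The WT and Nkx2-1cKO arrays of each number lay on different slides, so slide and number cannot be told apart in these correlations. With replicate number as a block 8 probes were higher and 65 lower, all 73 among the 324 called without it, and 0 genes of the related lists passed in either direction. The cause was not tested. A change of 0.5 on the log2 scale was not recovered in simulated data in which 200 probes changed, each by that size. The simulation does not give the sensitivity on these arrays, where larger changes were present and an Id4 probe at 0.57 passed (adjusted p = 0.0118, limma). By the brightest probe, the differences of the radial glia genes lay between -0.33 and 0.06, and the dimmest Sox9 probe gave -0.63. Differences on dim probes depend on the background correction.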
